A study of Mus musculus with 8 samples.

Results

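Mouse peritoneal macrophages kept for 48 h with LECT2 at 0.5 µg/ml are compared here with untreated macrophages of the same age in culture. LECT2 (leukocyte cell-derived chemotaxin 2) is a protein that liver cells secrete into the blood, and peritoneal macrophages are the phagocytes that live in the abdominal cavity. The comparison rests on 2 of the study's 8 arrays, chosen by their titles (low dosage, 48 hours), and its measure is the log2 ratio of LECT2 over control on each array. Across the study, cells washed out of the mouse peritoneum were plated in low-glucose medium with 20% fetal bovine serum and given LECT2 at 0.5 or 5 µg/ml, or none, for 48 h or 3.5 h (the channel labels say 3 h for the early time). Each array carried RNA of LECT2-treated cells in Cy3 and of untreated cells in Cy5, and the 2 arrays of each dose and time came from independent experiments with different mice. The strain, sex and age of the mice and the source of the LECT2 protein are not given in the sources used here.

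The control had the same dye on all arrays, so a dye effect on a transcript and the effect of LECT2 cannot be told apart. The columns of values labelled as the low dose at 48 h equal the ratio in a scanner file within 0.01 for 99.93% (replicate 1) and 99.95% (replicate 2) of the probes well above background, but those files are recorded under other samples, the low dose at 3.5 h (replicate 2) and the high dose at 48 h (replicate 2). The values follow the labels of the columns, and results are also given with the scanner files taken as recorded. By the column match, the files recorded as the low dose at 48 h hold the high dose at 3.5 h and at 48 h (replicate 1 of each). Under that match a group of files taken as recorded therefore mixes the times. On the 2 arrays, 70.9% and 67.4% of the spots were well above background in the LECT2 channel and 69.9% and 72.2% in the control channel. The log2 ratios of the 2 arrays correlated across 26148 genes at r = 0.352, a description of these arrays, since genes are not independent replicates. The number of arrays limits the precision, and the median standard error of a mean log2 ratio was 0.28.

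The cells carried the transcripts of macrophages. Of 9 macrophage markers tested, 8 were well above background in both channels of both arrays, among them Adgre1, which encodes F4/80, and Csf1r, which encodes the receptor for the macrophage growth factor. Adgre1 had log2 ratios of 0.01 and -0.20, and Csf1r was at 0.0037 and -0.0042. The signals of the 9 markers summed to 313272 and 303043 with LECT2, against 315313 and 353550 in the control.

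Interferons are secreted proteins with which cells signal infection. Type I interferons act mainly through a DNA element called the ISRE (interferon-stimulated response element), and interferon gamma mainly through the GAS element (gamma-activated site). In macrophages both switch on antiviral effectors of the Ifit and Oas families, guanylate-binding proteins and immunity-related GTPases, which attack the compartments that microbes live in, and genes of antigen presentation.

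With 0.5 µg/ml LECT2 at 48 h, 40 genes rose and 5 fell out of 26148 tested, which is 0.153% and 0.0191% (0.172% in all), by limma with Benjamini-Hochberg adjustment at 0.05. Of the 40 genes that rose, 28 carried a gene symbol, and 19 of these 28 belonged to lists of interferon-induced families. Of the 16754 genes tested with a symbol, these lists held 32 (Ifit and Ifi), 22 (Oas and RNA sensing), 10 (guanylate-binding proteins), 8 (immunity-related GTPases) and 7 (Schlafen). The lists were chosen with earlier results of these data known. The rises lay between log2 1.61 and 4.92 with a median of 2.83. In 34 of the 40 the ratio was larger on replicate 1, by a median of 0.36 over all 40, against a median gap of -0.0041 over all genes tested. On an unadjusted p under 0.05 there were 2639 genes (10.1%).

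**Figure D1:**
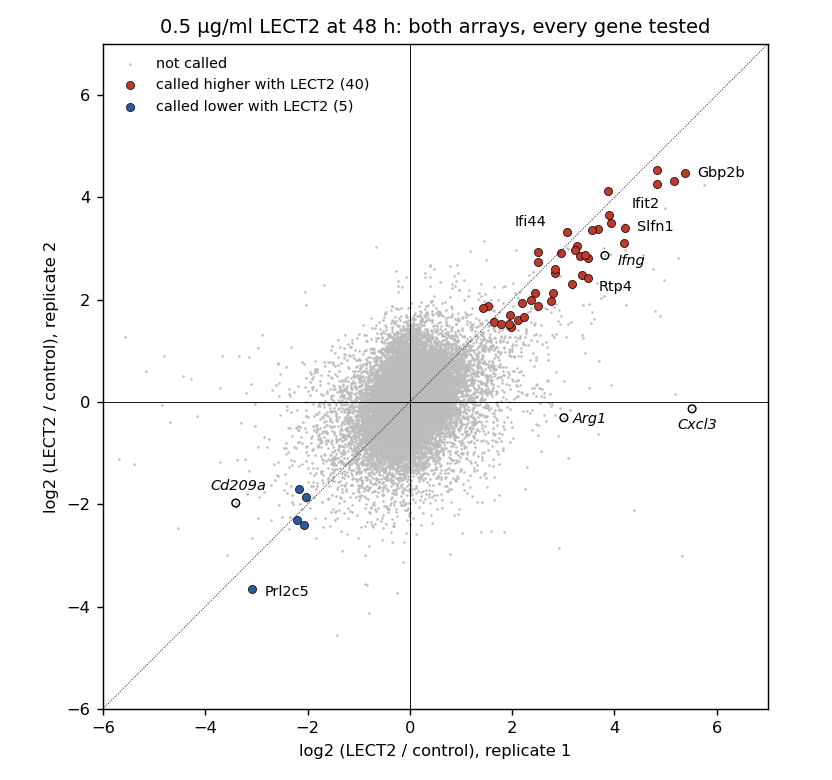
Log2 ratio of LECT2 over control on replicate 1 (horizontal axis) and replicate 2 (vertical axis) for each of the 26148 genes tested, with 0.5 µg/ml LECT2 at 48 h; red points are the 40 genes called higher, blue points the 5 called lower, open circles named genes that were not called, and the dotted line marks equal values. The called genes sit away from the centre on both arrays, while Cxcl3 and Arg1 are high on replicate 1 and below 0 on replicate 2.

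Promoters of 5 genes that rose are shown because their letters hold an element through which interferons act. Each is the 250 bases before the RefSeq transcription start on build GRCm38.p6, written 5′ to 3′ on the strand of the gene, with matches to the ISRE letters (GAAA, any 2 bases, GAAA, searched on both strands) in capitals. They stand at chr19:34640639-34640888 (plus strand) for Ifit1, chr3:142594597-142594846 (plus) for Gbp2b, chr5:120777660-120777909 (minus) for Oas3, chr11:48992247-48992496 (minus) for Tgtp1 and chr11:58214727-58214976 (plus) for Irgm2.
Ifit1: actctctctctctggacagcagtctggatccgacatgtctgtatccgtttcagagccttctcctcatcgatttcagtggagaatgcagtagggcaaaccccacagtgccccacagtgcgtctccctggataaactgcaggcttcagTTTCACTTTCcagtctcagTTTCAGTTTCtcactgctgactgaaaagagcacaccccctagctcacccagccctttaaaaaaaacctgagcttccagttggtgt
Gbp2b: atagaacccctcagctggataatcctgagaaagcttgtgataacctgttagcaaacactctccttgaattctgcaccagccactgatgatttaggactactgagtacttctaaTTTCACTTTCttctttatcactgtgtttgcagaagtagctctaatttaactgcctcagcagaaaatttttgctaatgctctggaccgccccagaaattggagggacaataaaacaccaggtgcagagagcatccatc
Oas3: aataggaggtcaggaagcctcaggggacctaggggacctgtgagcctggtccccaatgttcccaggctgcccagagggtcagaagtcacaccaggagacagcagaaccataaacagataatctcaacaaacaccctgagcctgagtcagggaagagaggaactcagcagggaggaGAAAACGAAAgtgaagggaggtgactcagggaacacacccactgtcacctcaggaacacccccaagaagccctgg
Tgtp1: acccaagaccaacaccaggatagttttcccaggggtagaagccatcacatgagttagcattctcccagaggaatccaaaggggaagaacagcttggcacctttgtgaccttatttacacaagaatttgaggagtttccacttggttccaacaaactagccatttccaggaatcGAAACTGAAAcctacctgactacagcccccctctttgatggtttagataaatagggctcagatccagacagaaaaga
Irgm2: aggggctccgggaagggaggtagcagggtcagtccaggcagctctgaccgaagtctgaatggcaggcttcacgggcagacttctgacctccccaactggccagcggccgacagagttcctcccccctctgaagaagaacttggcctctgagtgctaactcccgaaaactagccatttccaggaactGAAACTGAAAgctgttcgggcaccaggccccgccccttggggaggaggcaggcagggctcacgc

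The Ifit1 window holds 2 matches, which begin 104 and 85 bases before the start. The match begins 137 bases before the start in Gbp2b, 75 in Oas3, 77 in Tgtp1 and 64 in Irgm2. In Tgtp1 and Irgm2 the GAS letters TTCNNNGAA (both strands) stand just upstream of the ISRE letters, as TTCCAGGAA beginning 88 and 75 bases before the start, without overlap with them. RefSeq windows were at hand for 22 of the 28 named genes that rose, and 14 of the 22 (63.6%) held the ISRE letters, against 936 of 27025 genes (3.46%) over all promoter windows. The GAS letters were in 6 of the 22 (27.3%), against 8.13% over all windows, and both in 4 (18.2%), against 0.459%. Some of the 22 are close copies whose windows hold like sites: Ifit3 and Ifit3b, Tgtp1 and Tgtp2, and Phf11a and Phf11b. Tgtp1, Tgtp2 and Irgm2, all among those with both, share the letters TTCCAGGAA. The shares therefore count like windows more than once. Of the 198 named genes with a log2 ratio of 1 or more on both arrays, 144 had a window, and 35 of these (24.3%) held the ISRE letters. Ifit2, Ifi44, Ifi44l, Slfn1, Xaf1, Il18bp, Ftdc1 and Pla2r1 held no ISRE match of these letters, which says only that the letters are not in these windows. A match describes the sequence and is not a measured binding site.

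Of the Ifit genes, whose proteins bind viral RNA and block its translation, 4 rose and Ifit1bl1, at 0.61 and 0.34 with a dim control, did not pass the test. Ifit1 had LECT2 signals of 2256 and 1498 on replicates 1 and 2, against control signals of 209 and 204, which gives log2 ratios of 3.43 and 2.88. Ifit2 had signals of 1677 and 874 with LECT2 and of 59 and 46 in the control, or log2 4.83 and 4.26. For Ifit3 the LECT2 signals were 3591 and 1987 and the control signals 282 and 190, or log2 3.67 and 3.38. In each of the 3 genes both LECT2 signals stood above both control signals. The mean log2 ratios were 3.16 ± 0.24 for Ifit1, 4.55 ± 0.25 for Ifit2 and 3.53 ± 0.23 for Ifit3. The limma adjusted p values were 0.00997, 0.00411 and 0.00809. Each value after ± is the SE of the limma fit to the arrays of all groups. Its variance is pooled over the groups and drawn towards that of other genes. The SE is therefore not the spread of these 2 arrays alone, and 2 close ratios can carry a large SE. Ifit3b, a close copy of Ifit3 whose probe may share its signal, had log2 ratios of 2.51 and 2.73. The mean was 2.62 ± 0.24 (limma adjusted p = 0.0152), and the other probe of Ifit3b gave 1.05 and 1.48.

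Other antiviral effectors of this list rose as well. Rsad2, which encodes viperin, an enzyme that makes a chain-ending nucleotide, had log2 ratios of 2.96 and 2.92 (mean 2.94 ± 0.23, adjusted p = 0.00997), with LECT2 signals of 6236 and 4180 against control signals of 803 and 553. Ifi44 was at log2 3.07 and 3.33 (mean 3.20 ± 0.24, adjusted p = 0.00997), and its neighbour Ifi44l at 3.32 and 2.86 (mean 3.09 ± 0.40, adjusted p = 0.0489). Rtp4, an interferon-induced gene first described as a chaperone of receptors, was at 3.49 and 2.42 (mean 2.95 ± 0.35, adjusted p = 0.036). The smallest rise in the list was that of Phf11b, at 1.95 and 1.69 (mean 1.82 ± 0.21, adjusted p = 0.0343), and its relative Phf11a, outside the list, was at 2.24 and 1.65 (mean 1.95 ± 0.26, adjusted p = 0.0489).

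Of 38 listed Ifit and Ifi effectors 32 were tested, of which 9 rose and 0 fell. Their median log2 ratio was 1.41, beside 0.02 for all genes tested. Both arrays were above 0 for 28 of the 32 (30% of all genes tested) and at 1 or more for 20 (1.22% of all genes). Members that did not pass the test include Ifi27l2a at 2.94 and 2.47 (adjusted p = 0.0939), the DNA sensor Ifi209 at 3.49 and 1.91, Cmpk2, a nucleotide kinase gene next to Rsad2, at 2.95 and 1.52, and Isg15, a ubiquitin-like modifier, at 0.82 and 1.01. Mx1 and Mx2 had no probe named here.

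Guanylate-binding proteins gave the highest median of the interferon families. Gbp2b had LECT2 signals of 6327 and 3583 against control signals of 153 and 161, or log2 5.37 and 4.47, a 30.3-fold mean ratio (log2 4.92 ± 0.42, adjusted p = 0.0136), and its other probe gave log2 5.0 and 4.19. Gbp2 was at log2 3.23 and 2.96 (mean 3.1 ± 0.29, adjusted p = 0.0157), from LECT2 signals of 21500 and 21090 and control signals of 2291 and 2707. Gbp3 was at 3.48 and 2.82 (mean 3.15 ± 0.27, adjusted p = 0.0136), and Gbp5, which assembles on microbial membranes and promotes inflammasome activity, at 2.80 and 2.13 (mean 2.47 ± 0.27, adjusted p = 0.0245). All 10 members tested, of 11 listed, were at log2 1 or more on both arrays (1.22% of all genes tested). Their median was 3.07, with 4 called. The other 6 did not pass the test, with adjusted p from 0.0558 (Gbp10, log2 3.09 and 3.0) to 0.122 (Gbp6, 3.07 and 3.01). Gbp8 was at 5.75 and 4.25 (adjusted p = 0.0665), with a control signal not well above background on replicate 1, and Gbp4 at 4.99 and 3.79 (adjusted p = 0.0589). Members of this family resemble each other in sequence, so a probe may take up signal from a relative.

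Immunity-related GTPases, which in mice disrupt the vacuoles of intracellular parasites and bacteria, had 3 of 8 members that rose. Tgtp1 had LECT2 signals of 907 and 697 against control signals of 61 and 55, or log2 3.90 and 3.66 (mean 3.78 ± 0.35, adjusted p = 0.0152). Tgtp2, a nearly identical gene, was at 4.18 and 3.1 (mean 3.64 ± 0.41, adjusted p = 0.0313), and its probe may share signal with Tgtp1. Irgm2, a regulator of the family, was at 2.76 and 1.98 (mean 2.37 ± 0.30, adjusted p = 0.0489). The median of the 8 was 2.26, and 6 were at 1 or more on both arrays (1.22% of all genes tested). Igtp (3.17 and 2.22, adjusted p = 0.0543) and Irgm1 (2.16 and 2.14, adjusted p = 0.0814) did not pass the test. Iigp1, already at control signals of 10610 and 6469, was at 0.71 and 1.19. Gm4951, annotated among the interferon-inducible GTPases of the mouse, rose outside the list at 2.85 and 2.59 (mean 2.72 ± 0.32, adjusted p = 0.036), as did Gm4841, whose control signal was not well above background and whose rise was at least 5.11-fold (adjusted p = 0.0245). From the matched scanner files under loess, Gm4841 was at log2 0.20 and was not called (adjusted p = 0.9995).

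**Figure D2:**
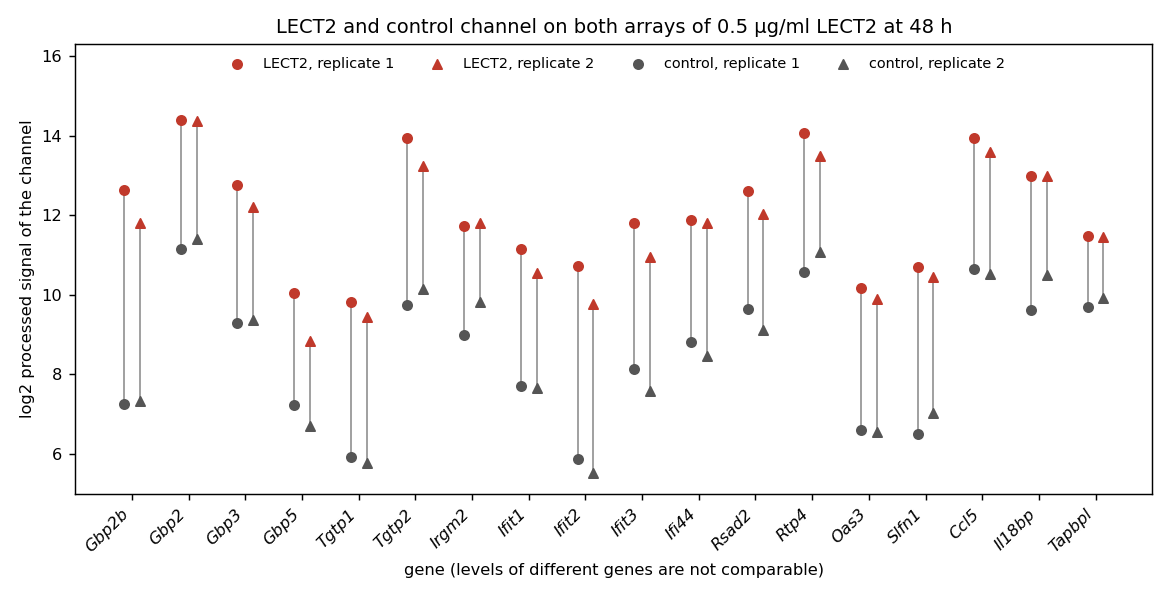
Log2 processed signal of the LECT2 channel (red) and the control channel (grey) for 18 genes that rose with 0.5 µg/ml LECT2 at 48 h, with circles for replicate 1 and triangles for replicate 2 and a line joining the channels of an array. In each gene both red points lie above both grey points, as for Gbp2b with 6327 and 3583 against 153 and 161 on the linear scale.

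Among genes of RNA sensing and degradation, 2 of 22 tested rose. Oas3, whose product makes the signal that activates RNase L, had LECT2 signals of 1162 and 959 against control signals of 98 and 94, or log2 3.57 and 3.36 (mean 3.46 ± 0.43, adjusted p = 0.0482). Xaf1, a promoter of cell death, was at 2.51 and 1.87 (mean 2.19 ± 0.26, adjusted p = 0.0385). Both arrays were above 0 for 20 of the 22 (30% of all genes tested) and at 1 or more for 12 (1.22%), with a median of 1.16. Not past the test were Oasl1 (2.85 and 1.92, adjusted p = 0.0814), Oasl2 (2.48 and 1.79, adjusted p = 0.0677), the RNA sensor genes Dhx58 (2.12 and 1.41) and Ifih1 (1.56 and 1.20), and the nucleic acid sensor gene Zbp1 (1.41 and 1.53). In the Schlafen family, regulators of growth and translation in immune cells, Slfn1 alone of 7 tested passed the test, with LECT2 signals of 1672 and 1386 against 91 and 131 in the control (log2 4.20 and 3.41, adjusted p = 0.0219). The next highest was Slfn4 at 1.44 and 1.09 (adjusted p = 0.476).

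Outside the antiviral families, 3 genes with known roles between immune cells rose. Ccl5, the chemokine RANTES that draws T cells and monocytes, had LECT2 signals of 15610 and 12230 against control signals of 1617 and 1474, or log2 3.27 and 3.05 (mean 3.16 ± 0.29, adjusted p = 0.0152). Il18bp, a secreted inhibitor of interleukin 18, was at 3.36 and 2.48 (mean 2.92 ± 0.32, adjusted p = 0.0245), from 8062 and 8046 with LECT2 and 783 and 1437 in the control. Tapbpl, which helps load peptides onto MHC class I, was at 1.79 and 1.53 (mean 1.66 ± 0.22, adjusted p = 0.0489). The other named genes that rose were dim. Ftdc1 rose at least 4.33-fold (adjusted p = 0.036) over a control not well above background, but was at log2 0.37 and not called from the matched files under loess (adjusted p = 0.9995). Slc10a5 (adjusted p = 0.0489) and Pla2r1 (adjusted p = 0.0489) were not well above background in either channel and have no fold.

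**Figure D3:**
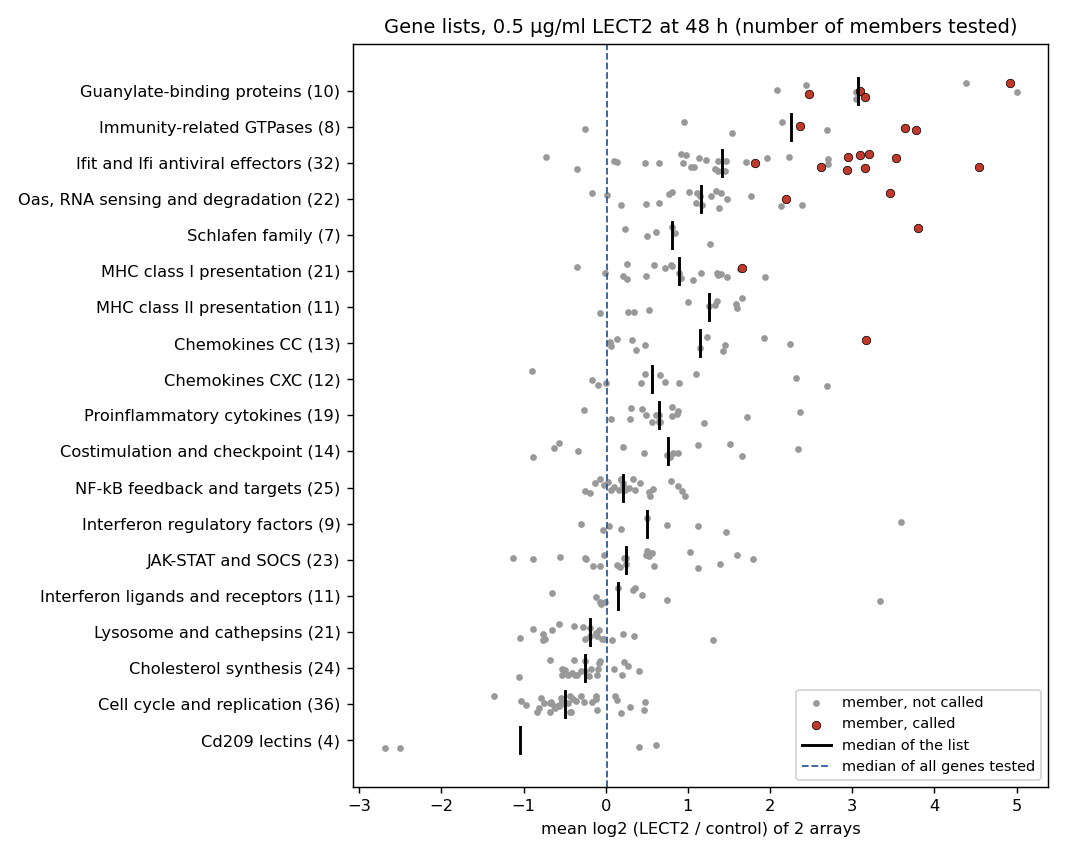
Mean log2 ratio of LECT2 over control (2 arrays, 0.5 µg/ml, 48 h) for the members of 19 gene lists, 1 point per gene, red where called and grey where not, with a black bar at the median of each list and a dashed line at the median of all genes tested (0.02). Guanylate-binding proteins have a median of 3.07, NF-kB targets 0.21 and cell cycle genes -0.50.

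Genes that carry the interferon signal did not pass the test singly. Ifng, the interferon gamma gene, was at log2 3.82 and 2.86, from LECT2 signals of 130 and 100 against control signals of 9 and 14 that were not well above background, which is at least 9.86-fold (adjusted p = 0.156). Ifnb1, the beta interferon gene, was dim at 1.09 and 0.40. The median of 11 interferon and receptor genes was 0.15. Of 9 interferon regulatory factors, Irf7, the amplifier of type I interferon production, was at 4.20 and 2.97 (adjusted p = 0.0665), Irf1 at 1.67 and 1.26 (adjusted p = 0.0864), Irf8 at 1.3 and 0.94 and Irf9 at 0.57 and 0.44. Stat2 was at 1.65 and 1.56 (adjusted p = 0.0795) and the feedback inhibitor gene Socs1 at 2.06 and 1.52 (adjusted p = 0.0797). No member of the last 2 lists was called, and their medians were 0.50 (9 regulatory factors) and 0.24 (23 genes of JAK-STAT and SOCS).

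Antigen presentation had positive medians, with 1 call. Of 21 genes of the MHC class I pathway Tapbpl rose, 18 were above 0 on both arrays (30% of all genes tested), and the median was 0.90. Tap1, a subunit of the peptide transporter, was at 2.01 and 1.87 (adjusted p = 0.0665), Nlrc5, the activator of class I genes, at 1.82 and 1.45, the immunoproteasome gene Psmb8 at 1.76 and 1.20 and Psme1 at 1.19 and 1.56 (adjusted p = 0.0797). B2m, which encodes the light chain, differed more between arrays, at 1.39 and 0.21. In class II, 0 of 11 were called and the median was 1.25. Cd74, the invariant chain, had LECT2 signals of 120800 and 89710 against control signals of 29210 and 37130, or log2 2.05 and 1.27 (adjusted p = 0.12), and the class II chain H2-Aa was at 1.75 and 1.43 (adjusted p = 0.155). H2-Ab1 was at 2.09 and 1.11, whereas H2-Eb1 was at 2.73 and -0.01. With the scanner files as recorded, the class II median was 0.01 and Cd74 was at -0.074.

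For chemokines and cytokines the 2 arrays gave unlike list medians. Of 13 CC chemokines Ccl5 was called, and the list's median was 1.42 on replicate 1 and 0.25 on replicate 2. Ccl4 was at 2.54 and 1.32 and Ccl12 at 2.90 and 1.58, whereas Ccl2 was at 2.59 and 0.25 and Ccl7 at 2.75 and 0.15. For the 12 CXC chemokines (0 called) the medians were 1.27 and -0.12. Cxcl10, induced by interferon, was at 2.96 and 1.67 (adjusted p = 0.133), Cxcl9, a target of interferon gamma, at 0.51 and 0.35, and the neutrophil chemokine gene Cxcl3 at 5.52 and -0.13. Of 19 proinflammatory cytokines 0 were called, with medians of 1.36 and 0.22. Il1b was at 3.15 and 1.57, Il6 at 1.36 and -0.37 and Tnfsf10, the death ligand TRAIL, at 1.65 and 1.79 (adjusted p = 0.0665). Of 25 NF-kB genes, which answer a transcription factor of inflammation, 0 were called and the median was 0.21. With the scanner files as recorded the cytokine median was 2.82.

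Genes of arginine, nitric oxide and itaconate metabolism had a median of 0.44 over 11 tested, with 0 called. Acod1, which makes itaconate, had log2 ratios of 3.39 and 1.89 (adjusted p = 0.0665), and Ass1, which recycles citrulline to arginine, 2.25 and 1.11. Nos2, the inducible nitric oxide synthase gene, was at -0.02 and -0.45, and Arg1, arginase, at 3.01 and -0.31. Members of other lists were uncalled too. The complement genes Cfb and C3 were at 3.73 and 2.02 and at 1.95 and 1.27, in a list with a median of 0.28 over 15 tested. Cd274, the checkpoint ligand PD-L1, was at 1.87 and 1.44 and Slamf8 at 1.83 and 1.20 (adjusted p = 0.0814), while the activation marker Cd69 was at 3.37 and 1.31. The costimulation and checkpoint list that holds these 3 had a median of 0.76 over 14 tested. Mmp13, a collagenase, was at 4.08 and 2.24 (adjusted p = 0.0969), and the Fc receptor gene Fcgr4 at 2.78 and 1.31. The list of matrix proteases and inhibitors had a median of 0.23 over 17 tested, with 5 above and 4 below 0 on both arrays. Fc receptors had a median of 0.07 over 8 tested, with 3 above and 3 below. Lcn2, which binds iron carriers of bacteria, was at 2.57 and 1.51 and S100a8 at 1.97 and 1.27, and both belong to a list of neutrophil markers whose median was 0.07 over 10 tested. The pyrin gene Mefv was at 1.69 and 0.64 (adjusted p = 0.257), in an inflammasome list with a median of 0.56 over 14 tested.

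Downward, the genes that passed the test were dim. Prl2c5, a prolactin-family gene, had LECT2 signals of 19 and 13 that were not well above background, against control signals of 164 and 158, at least 10.4-fold lower (adjusted p = 0.0152). Fam13c was at least 4.41-fold lower (adjusted p = 0.0219), Crb2, a cell polarity gene, at least 4.54-fold (adjusted p = 0.0489) and Mtus2 at least 3.85-fold (adjusted p = 0.0489), each with a dim LECT2 channel. Otogl was not well above background in either channel (adjusted p = 0.0378). With the matched scanner files, background correction by normexp and loess, the log2 ratios of the 5 genes lay between -0.57 and -0.18 and 0 of the 5 were called.

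Brighter genes on the lower side did not pass the test. Cd209a encodes a C-type lectin that has been reported as a receptor of LECT2, and its signals were 113 and 318 with LECT2 against 1200 and 1251 in the control, or log2 -3.40 and -1.98 (adjusted p = 0.0905). Cd209b was at -3.19 and -1.81 (adjusted p = 0.0512), while Cd209d (0.28 and 0.95) and Cd209f (0.17 and 0.64) were above 0. Met, another reported receptor gene of LECT2, was at 0.21 and 0.32. Alox15, a lipoxygenase of resident peritoneal macrophages, was at -2.95 and -1.86 (adjusted p = 0.121), and Gata6, which maintains these cells in the peritoneum, at -1.09 and -0.83 (adjusted p = 0.159). The list of resident macrophage identity genes as a whole lay near 0, with a median of -0.08 over 26 tested and 0 called. In it 9 were below 0 on both arrays (34.6%, against 29% of all genes tested) and 7 above. The means ran from -2.40 to 1.55.

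Lists of growth and lysosomal genes leaned below 0 without a call. Of 36 cell cycle genes 26 were below 0 on both arrays (29% of all genes tested) and 1, Bub1b, was at -1 or less on both before rounding (0.964% of all genes), with a median of -0.50. Cenpa, a centromere histone, was at -1.06 and -0.998 (adjusted p = 0.187), the mitotic checkpoint gene Bub1b at -1.27 and -1.43, the mitotic kinase gene Plk1 at -0.68 and -0.93, Rrm1 at -0.79 and -1.15 and Tyms at -1.01 and -0.66. In the lysosome list 11 of 21 were below 0 on both arrays (29% of all genes tested) and 2 above, with a median of -0.20. Among the 11 were the protease gene Ctsd (-0.76 and -0.70) and Hexa (-0.87 and -0.91). The means of this list ran from -1.04 to 1.31. Npc1, a cholesterol transporter gene listed with cholesterol efflux, was at -1.09 and -0.69. That list did not lean below 0: its median was 0.11 over 17 tested, with 5 above and 6 below 0 on both arrays. Its means ran from -0.89 to 1.01. Cholesterol synthesis had a median of -0.25 over 24 genes, with Fdft1, squalene synthase, at -1.44 and -0.66 (adjusted p = 0.183).

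Markers of other cells moved in places. Of 19 markers of T and NK cells tested, 15 were above 0 on both arrays (30% of all genes tested) and 0 were called. Their median was 0.58, and their signals summed to 19983 and 18934 with LECT2, against 18886 and 12578 in the control. Gzmb, a killer-cell protease, was at log2 4.79 and 1.77 (adjusted p = 0.28), Klrd1 at 2.55 and 1.84 (adjusted p = 0.0677), Cd3g at 1.85 and 1.24 (adjusted p = 0.0814), Nkg7 at 0.93 and 1.6 and Gzma at 0.97 and 0.92, while Klrb1c, the NK1.1 antigen gene, was at -1.21 and -2.27. These stand beside Ifng, which lymphocytes make, and beside the interferon families, and their part in the result was not tested. Of 15 markers of mesothelium and fibroblasts 11 were below 0 on both arrays (29% of all genes tested) and 0 were called. Their median was -0.16 on replicate 1 and -1.16 on replicate 2. Their summed signals were 57913 and 47489 with LECT2, against 63607 and 111607 in the control. Upk3b, a mesothelial gene, was at -4.53 and -2.47, Pdgfra at -1.83 and -1.39 (adjusted p = 0.0922) and Wt1 at -0.97 and -1.02, and their part in the lower values was not tested. In mixed RNA, fewer cells of a type and less RNA per cell cannot be told apart.

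**Figure D4:**
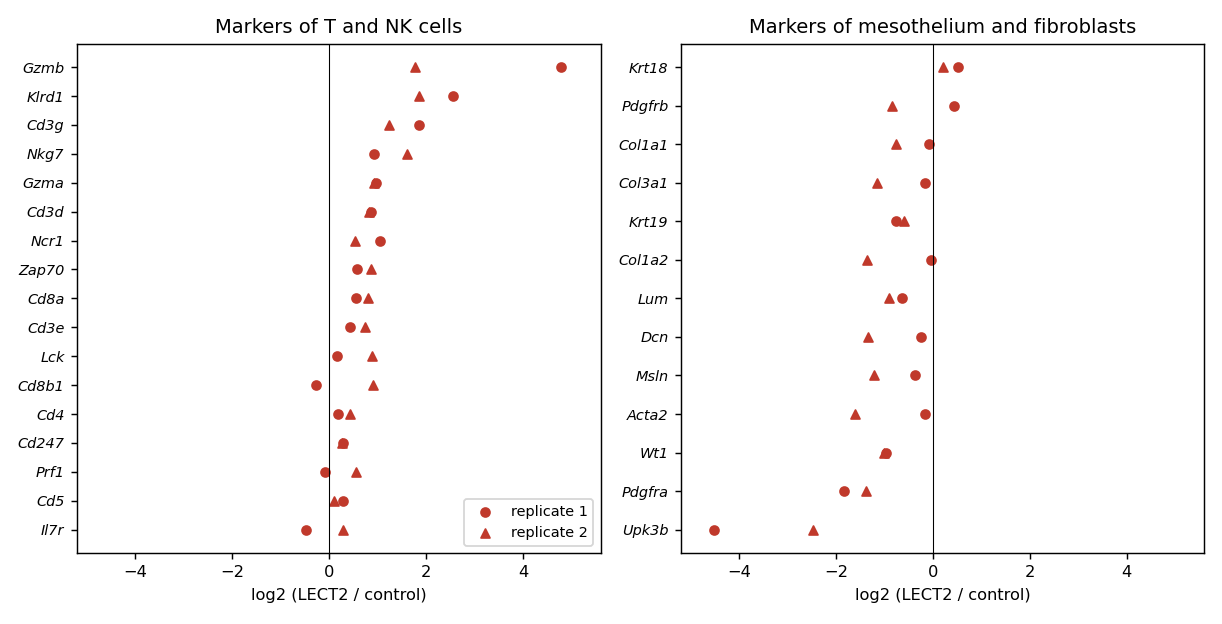
Log2 ratio of LECT2 over control on replicate 1 (circles) and replicate 2 (triangles), 0.5 µg/ml at 48 h, for markers of T and NK cells (left) and of mesothelium and fibroblasts (right), leaving out markers with neither channel well above background on both arrays. Of the T and NK markers plotted 14 of 17 are above 0 on both arrays (30% of all genes tested). Of the mesothelial and fibroblast markers plotted 11 of 13 are below 0 on both (29% of all genes tested).

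The test needs both arrays for its precision. A fit with 1 of them left out has a larger standard error, so only the ratios are compared here. How far a loss of calls there reflects differences between the arrays was not tested. The median log2 ratio of the 40 genes that rose was 2.66 without replicate 1 and 3.01 without replicate 2, against 2.83 with both. A trended and robust variance gave 0 calls, with 2411 genes at an unadjusted p under 0.05. The matched scanner files under loess gave 33, of which 21 were among the 45 genes called. A trended variance leaves the ratios as they are, and the 40 genes that rose were chosen for high ratios on these same arrays. Of these fits only loess could therefore move their sign. Under loess the 40 genes were above 0, but their median was 1.84, against 2.83, and the lowest was at 0.13. A fit of only the 4 low-dose arrays also called 0, with 2586 genes at an unadjusted p under 0.05. If each scanner file is instead assigned by its record, limma called 43 genes, all higher, of which 10 were among the 45, Ifit1, Ifit2, Ifit3, Rsad2, Oas3 and Ccl5 included. The median of the guanylate-binding proteins was then 3.69 and that of the Ifit and Ifi effectors 2.33, but the NF-kB list, at 0.21 in the labelled columns, had a median of 2.04. By the column match this recorded group mixes an early and a late array, both of the high dose.

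The late response to the low dose was then set against its early response. Of 26148 genes 26 (0.0994%) differed between 48 h and 3.5 h, 4 (0.0153%) higher and 22 (0.0841%) lower at 48 h, and the lower ones included inflammatory genes. Tnf had log2 ratios of 1.49 and 0.26 at 48 h, against 5.57 and 5.6 at 3.5 h, a difference of -4.71 ± 0.51 (SE, adjusted p = 0.0328). Il1a was at 0.68 and -0.05 at 48 h, against 6.17 and 5.21 at 3.5 h (difference -5.38 ± 0.58, adjusted p = 0.0328). The cytokine genes Il23a (0.68 and 0.62 at 48 h, against 4.71 and 4.57 at 3.5 h) and Il27 (0.52 and 0.77, against 3.31 and 3.62) differed as well (adjusted p = 0.022 and 0.0321).

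Regulators of signalling were among the other differences. Tnip1 and Tnfaip2, targets of NF-kB, and the stress gene Gadd45b were between -0.33 and 0.25 on both arrays at 48 h, against 2.37 to 3.25 at 3.5 h. Rgs2, a brake on G-protein signalling, was at -0.19 and -0.68 at 48 h, against -4.10 and -3.94 at 3.5 h, and the checkpoint gene Vsir at -0.62 and -0.07, against -3.29 and -2.97. Eepd1, a target of the sterol sensor LXR, was at 0.01 and 0.34 at 48 h, against -2.62 and -3.07 at 3.5 h. Fam13c, at -2.06 and -2.41 at 48 h against 0.90 and 0.53 at 3.5 h, was the only one of the 45 genes called at 48 h whose difference between times was called (adjusted p = 0.0374). Of the named lists, 4 of 19 proinflammatory cytokines and 3 of 25 NF-kB genes were called in this difference, all lower at 48 h. The NF-kB median was 0.21 at 48 h and 2.09 at 3.5 h.

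The medians of interferon-induced lists shifted unlike between the times, with 0 of their members called in the difference. The median of guanylate-binding proteins was 3.07 at 48 h and 1.65 at 3.5 h, and that of immunity-related GTPases 2.26 at 48 h and 1.21 at 3.5 h. The Ifit and Ifi effectors had medians of 1.41 at 48 h and 1.31 at 3.5 h, the Oas and RNA sensing list 1.16 at 48 h and 0.94 at 3.5 h, and the Schlafen family 0.81 at 48 h and 1.47 at 3.5 h. The 40 genes that rose were chosen by their 48 h values, so their count and median against 3.5 h are not read, and 0 of the 40 were called in the difference (lowest adjusted p = 0.086). Gbp2b was at 5.37 and 4.47 at 48 h, against 1.5 and 1.88 at 3.5 h (difference 3.23 ± 0.60, adjusted p = 0.115). Il18bp was at 3.36 and 2.48 at 48 h, against 0.38 and 0.22 at 3.5 h (adjusted p = 0.113), and Ifi44 at 3.07 and 3.33, against 1.25 and 1.41. Ccl5 and Gbp5 had smaller means at 48 h, at 3.27 and 3.05 at 48 h against 3.92 and 3.04 at 3.5 h for Ccl5, and at 2.80 and 2.13 against 3.41 and 3.37 for Gbp5. The values of replicate 1 at 3.5 h follow their own scanner file at r = 0.778 only, and without that array 0 genes were called between the times, as was the case without replicate 1 at 48 h. Under the match between columns and files, slide 1 holds the 3.5 h arrays and slide 2 the 48 h arrays, so slide and time cannot be told apart. The 48 h columns equal the software's processed ratio and the 3.5 h columns do not, so the processing of the values goes with time as well. With the files as recorded 0 genes differed. Under the match, though, each of the 2 recorded low-dose groups holds an early and a late array, so that fit cannot decide between the times.

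**Figure D5:**
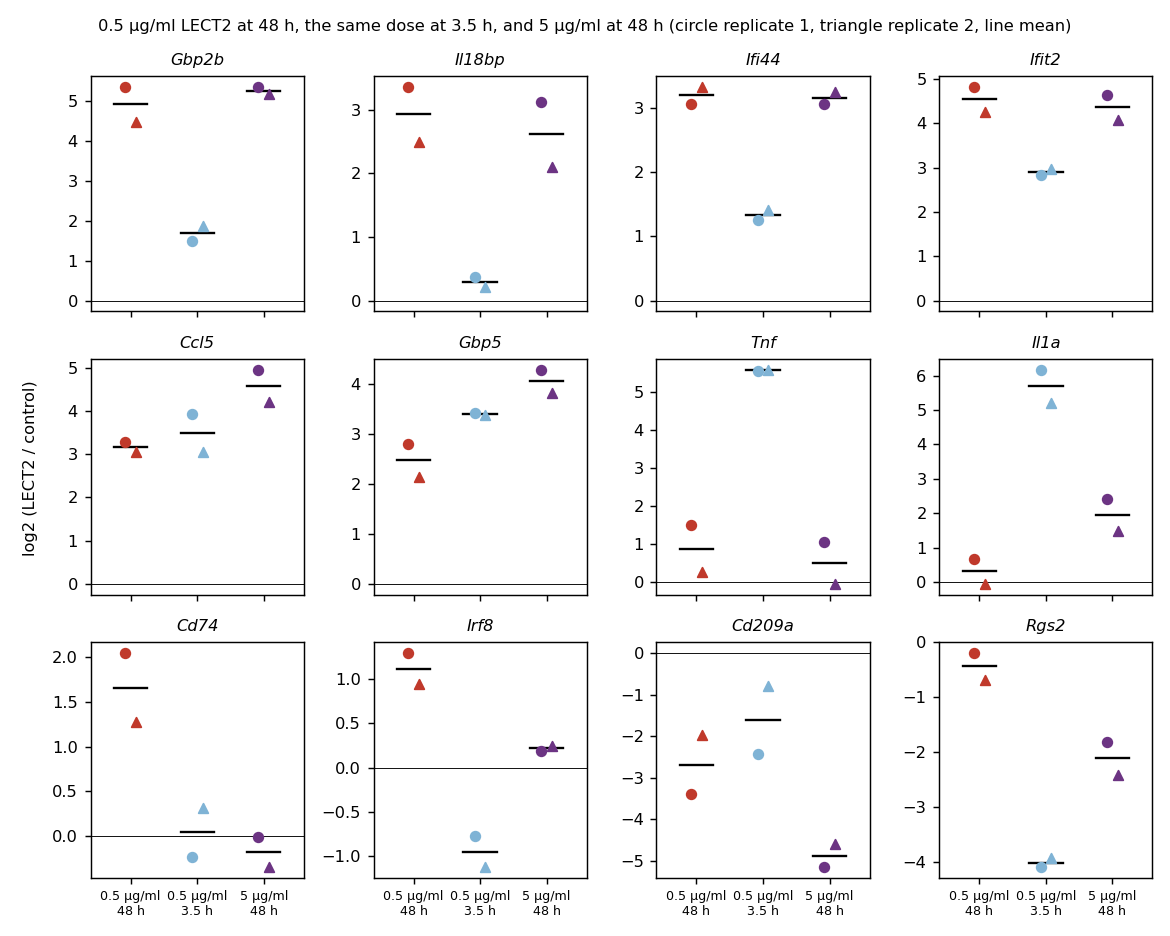
Log2 ratio of LECT2 over control for 12 genes on each array (circle replicate 1, triangle replicate 2, black line the mean of 2) with 0.5 µg/ml at 48 h (red), 0.5 µg/ml at 3.5 h (blue) and 5 µg/ml at 48 h (purple). Tnf, Il1a and Rgs2 are far from 0 at 3.5 h and nearer to it at 48 h. Gbp2b, Il18bp and Ifi44 have larger ratios at 48 h (Gbp2b at 5.37 and 4.47 against 1.5 and 1.88). They come from the genes chosen by high 48 h values, which favours this direction, and none was called in the difference between times.

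Against 5 µg/ml LECT2 at the same time, 0 of 26148 genes (0%) were called in the difference of low minus high dose by limma (lowest adjusted p = 0.0928), and 2738 (10.5%) had an unadjusted p under 0.05. Whether both doses of an experiment share untreated RNA is not given in the sources used here, so values are set side by side. The median of guanylate-binding proteins was 3.07 at the low dose and 4.37 at the high dose, and that of MHC class II genes 1.25 at the low dose and 0.13 at the high dose. Ifit1 was at 3.43 and 2.88 at the low dose, against 5.01 and 4.49 at the high dose, a difference of -1.59 with a 95% interval from -2.39 to -0.80 that was not past the adjusted threshold (adjusted p = 0.276). Gbp5 was at 2.80 and 2.13 at the low dose, against 4.28 and 3.81 at the high dose (difference -1.58, 95% interval from -2.45 to -0.70, adjusted p = 0.294). Ifit2 and Ifi44 were nearer, with differences of 0.18 (95% interval from -0.64 to 1.01) and 0.05 (from -0.74 to 0.83), intervals that leave room for a change in either direction.

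A further 6 genes, chosen after their values were seen, are given for both doses. Cd74 was at 2.05 and 1.27 at the low dose, against -0.01 and -0.35 at the high dose (difference 1.84, 95% interval from 0.81 to 2.87, adjusted p = 0.296), and H2-Aa at 1.75 and 1.43, against 0.10 and -0.46 (adjusted p = 0.322). Cenpa was at -1.06 and -0.998 at the low dose, against -3.27 and -2.87 at the high dose, and Cd209a at -3.40 and -1.98, against -5.15 and -4.60 (adjusted p = 0.185 and 0.34). Il1b was at 3.15 and 1.57 at the low dose, against 5.48 and 3.93 at the high dose (adjusted p = 0.322), and Nos2 at -0.02 and -0.45, against 1.48 and 1.44 (adjusted p = 0.291). None of these 6 differences passed the test.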

How the data were processed

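The members of the comparison and the gene lists were chosen with earlier results of these data known. Per the file headers and the submitters' processing notes, the slides were read with Agilent Feature Extraction 10.7.3.1. The scanner files hold each channel's spot intensity in linear units, a background flag and a log10 ratio of Cy5 over Cy3, all per the file headers. The deposited value table is in log2 units, control over LECT2. How the authors normalized it is not given in the sources used here. The 48 h columns equal the software's processed ratio, and the 3.5 h columns do not. It was the main source, with its sign turned, and background-corrected files (normexp, offset 50, then loess or median centring) were alternatives. The plan assumed scanner files, whose records conflict with the columns.

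Of 39429 probes 26412 could be named through RefSeq accessions (table of GRCm38.p6). A probe had to exceed background clearly on 2 or more arrays, in whichever channel, which left 31615. The brightest stood for its gene, giving 26148 genes, 16754 with a symbol. Limma 3.58.1 in R 4.3.3 was fitted to all 8 arrays with 1 mean per group (4 residual degrees of freedom), and p-values were adjusted by Benjamini-Hochberg across these genes (threshold 0.05). The fit was tested on simulated data with 50 changed genes at each size. It called 4% of them at log2 1, 56% at log2 2, 78% at log2 3 and 90% at log2 4, with 8 false calls. Signals in the text are the software's processed signals. A lower bound sets the bright channel against the higher of the dim signal and the lowest signal well above background, from those signals, open to dye bias. Levels of different genes are not compared.

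Genes are named by rule: all called genes with a symbol, members of the interferon, antigen presentation, chemokine, cytokine and Cd209 lists, the 4 largest means of each other list, and the 10 largest called differences each way. Outside the rule, and chosen after their values were seen, are Adgre1, Csf1r, Nkg7, Gzma, Ctsd, Gata6, Plk1, Tnip1 and Tnfaip2. Not every gene under the rule is reported here. Same-numbered replicates did not deviate together in every pair of groups (r from -0.06 to 0.47), so no block was used. With 2 arrays a group, each was left out in turn, and the lone array was assumed to vary like the other groups.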

Additional observations from a re-analysis of the deposited data

Results flagged for a closer look

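The response to the low dose differed between 48 h and 3.5 h, by a test of the difference itself, for 18 named genes (values are 48 h minus 3.5 h, log2). The difference was -4.71 for Tnf, -5.38 for Il1a, -3.99 for Il23a and -2.82 for Il27. It was -3.15 for Tnip1, -2.97 for Tnfaip2 and -2.55 for Gadd45b. Genes with a larger ratio at 48 h were Rgs2 at 3.58, Vsir at 2.79 and Eepd1 at 3.02. Fam13c was at -2.95. Other genes had lower ratios at 48 h than at 3.5 h, with differences of -4.64 for Riok2, -5.10 for Tmem18, -2.77 for Zbtb46, -2.97 for Fnbp1l, -2.78 for Intu, -2.72 for Lmo7 and -2.58 for Ahsa2. Of these, Riok2 was at -0.03 and -0.44 at 48 h, against 4.75 and 4.06 at 3.5 h, and Tmem18 at -0.29 and -0.90, against 5.10 and 3.91.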

How the results depend on the processing

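With main settings 45 genes were called in the low dose at 48 h against control, 26 between 48 h and 3.5 h, and 0 between the doses (2738 at an unadjusted p under 0.05). Against control the count was 13 from only the 4 arrays at 48 h, 19 with no filter, 79 with a strict filter, 0 with a trended and robust variance, 97 with the replicate number as a block and 85 with median centring of the matched files, and without either replicate it was 0 to 5. Median centring turned the split to 25 higher and 60 lower, against 40 higher and 5 lower, and moved the median of all genes to -0.14, so that the median of guanylate-binding proteins was 2.20. It was also 0 (2586 at an unadjusted p under 0.05) from only the 4 arrays of the low dose. The other 5 alternatives for this comparison (only its 2 arrays, the table centred on its medians, loess, processed signals and the mean of all probes) gave 33 to 52. Same-numbered samples correlated in their deviations at 0.0436, 0.166, 0.0022, 0.198, -0.0599 and 0.469, so the numbers were not taken as pairs; with the replicate block the 33 named called genes kept their call, 21 of 91 other named genes were called as well (Gbp8, Gbp4, Ifng, Irf7 and Cd209a among them), and 28 genes were called between times, Gbp8 higher at 48 h included.

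Between 48 h and 3.5 h the count was 0 from only the 4 low-dose arrays, 0 with no filter, 42 with a strict filter, 0 with a trended and robust variance, 17 with the centred table, 230 with loess, 110 with median centring and 0 with the files as recorded, and leaving out a replicate at 48 h gave 0 to 2. Leaving out replicate 1 of the low dose at 3.5 h, an alternative chosen after seeing the data, gave 0 calls between times, 53 against control and 6 between doses. Between doses loess gave 9 calls and median centring 10. The causes were not tested.

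Some single genes changed sign. For the files as recorded, each group used here mixes early and late arrays by the column match. With the files as recorded, the ratio to control was -0.024 for Pla2r1, -0.074 for Cd74, -0.089 for H2-Aa, -0.044 for H2-Eb1, 2.08 for Nos2, -0.20 for Cd209f, 0.38 for Tyms and 0.44 for Adgre1. The difference between times was then 0.11 for Tnf, 1.25 for Il1a, 1.12 for Il23a, 0.19 for Il27, 0.82 for Tnip1, 0.059 for Tnfaip2, 0.54 for Gadd45b, -1.01 for Rgs2, -0.82 for Vsir, -0.52 for Eepd1, 0.66 for Riok2, 0.41 for Zbtb46, 0.30 for Fnbp1l, 0.59 for Intu, 0.88 for Lmo7 and 0.048 for Ahsa2. The difference between doses was 1.51 for Gbp5, 1.29 for Ifit1, -0.93 for Cd74, -0.82 for H2-Aa, -0.96 for Cenpa, -0.63 for Cd209a, 2.21 for Il1b and 1.22 for Nos2. Median centring gave 0.088 for Otogl, -0.12 for Il6, -0.031 for Irf9 and -0.19 for B2m. Loess gave 0.027 for the Fam13c time difference, and the mean of probes gave 0.0203 for Adgre1 and 0.0077 for Csf1r. Without 1 replicate in turn, H2-Eb1 was at -0.0116 and 2.73, Cxcl3 at -0.13 and 5.52, Il6 at -0.37 and 1.36, Arg1 at -0.31 and 3.01, Adgre1 at -0.20 and 0.0082 and Csf1r at -0.0042 and 0.0037 (without replicate 1, then without replicate 2). Dim signals limit what can be said of the genes that fell.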

Other observations

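Among all genes tested, 318 (1.22%) were at log2 1 or more on both arrays and 252 (0.964%) at -1 or less on both. Markers of red cells and platelets had summed signals of 52885 and 39258 with LECT2, against 14738 and 42121 in the control. The sums weigh bright markers most. The median log2 ratio of the 7 tested was 0.16, and 0 were called. Of these 7, 2 were above 0 on both arrays (28.6%, against 30% of all genes tested) and 0 below.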
